A study of Mus musculus with 4 samples.

Results

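Small nucleolar RNA (snoRNA) and small Cajal body RNA (scaRNA) genes were taken from a genome-wide table of H3K9me2 at transcription start sites in mouse aortic smooth muscle. Every row whose symbol starts with Snora, Snord or Scarna, in any case, was kept. This gave 256 of 26354 rows, namely 105 Snora, 127 Snord and 24 Scarna rows. Each row holds the reads within 1 kb either side of a start site. H3K9me2, the dimethylation of a lysine in the tail of histone H3, is a repressive chromatin mark, and the study mapped it at promoters of vascular smooth muscle cells. The cells were the medial layer of the aorta of male C57Bl/6J mice, freed by hand of adventitia and endothelium, fixed in formaldehyde and never cultured. Chromatin precipitated with an H3K9me2 antibody (ChIP) was compared with unprecipitated chromatin (input). There were 2 independent experiments, v102 and v134, with 1 ChIP and 1 input library each, with no treatment or genetic change named, and the labels do not give the age or the number of mice behind a library.

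SnoRNAs are short noncoding RNAs that guide the chemical modification of other RNAs. Box C/D snoRNAs (Snord) pair with ribosomal RNA and direct ribose methylation by fibrillarin, while box H/ACA snoRNAs (Snora) direct pseudouridylation by dyskerin, and scaRNAs do the same for the spliceosomal RNAs in Cajal bodies. In mammals most of them lie within introns of host genes, often genes for ribosomal proteins or for noncoding transcripts named Snhg, and are cut out of the host's transcript, so a window at a snoRNA's 5′ end is usually not a promoter of its own. The Snord115 and Snord116 clusters lie in the imprinted region that corresponds to the human Prader-Willi/Angelman region, and are known for expression from the paternal chromosome in brain.

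The symbols came in 2 spellings, which were described separately. In mouse spelling there were 113 rows, and 111 of them match 1 gene of the GENCODE vM21 annotation of GRCm38. The other 143 rows are in capitals (SNORA17, SNORD115) and none matches a GENCODE symbol. These look like family names, with 1 row for each family however many copies the genome holds, and were treated as such. The table runs in genome order, and RefSeq copies of each family were sought between the neighbouring rows. Only copies without a Snora, Snord or Scarna symbol were counted. For 100 of the rows in capitals a single such copy was found, and it was taken as the position. This placement is an inference. As a check, a like rule that kept copies with such symbols gave 1 copy for 93 mouse-spelled rows, and 91 of these were at the annotated position. That search could return the row's own annotated gene, so it cannot show how often rows in capitals are placed correctly. The snoRNA gene itself covers a median of 6.20% of its window, so a value describes the surrounding chromatin. Windows of 85 members overlap the window of another row, and neighbouring snoRNAs of 1 host share reads.

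The sequences below are those the results turn on, from the GRCm38 genome at RefSeq or GENCODE coordinates, printed from 5′ to 3′. Capitals mark the C box (TGATGA, sought in the first 20 bases) and the D box (CTGA, sought in the last 15 bases) in Snord genes, and the ACA triplet (sought in the last 8 bases) in Snora genes, all on the strand of the RNA. The first group is from the imprinted region of chromosome 7 on the minus strand, where SNORD115 at chr7:59393561-59393639 has the lowest coordinates of the 32 copies that share the commonest sequence, Snord64 is at chr7:59978808-59978874 and Snord107 at chr7:59980876-59980945.
SNORD115: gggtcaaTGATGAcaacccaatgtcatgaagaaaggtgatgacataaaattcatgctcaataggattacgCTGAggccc
Snord64: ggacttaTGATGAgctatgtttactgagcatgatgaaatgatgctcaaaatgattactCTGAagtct
Snord107: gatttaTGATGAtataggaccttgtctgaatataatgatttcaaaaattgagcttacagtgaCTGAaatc

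The second group shows pairs in which a mouse-spelled row and a row in capitals carry nearly the same snoRNA at different loci. Snora21 lies within Rpl23, a ribosomal protein gene (chr11:97781639-97781775, minus strand) and SNORA21 between genes (chr7:68952100-68952236, minus strand), with 97.8% identity. Snora30, within Srcap (chr7:127527874-127528003, plus strand), and SNORA30 (chr14:96588827-96588956, plus strand) have 98.5% identity.
Snora21: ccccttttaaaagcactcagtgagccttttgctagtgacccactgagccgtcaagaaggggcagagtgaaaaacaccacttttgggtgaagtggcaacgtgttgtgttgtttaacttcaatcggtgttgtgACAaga
SNORA21: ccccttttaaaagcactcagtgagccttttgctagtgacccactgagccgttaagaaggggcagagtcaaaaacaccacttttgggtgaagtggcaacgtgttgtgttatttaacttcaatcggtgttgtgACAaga
Snora30: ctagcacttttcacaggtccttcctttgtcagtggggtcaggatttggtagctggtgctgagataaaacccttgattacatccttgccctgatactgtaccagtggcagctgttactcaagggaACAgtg
SNORA30: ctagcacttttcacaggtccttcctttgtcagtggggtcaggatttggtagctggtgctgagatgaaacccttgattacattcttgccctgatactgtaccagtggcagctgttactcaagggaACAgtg

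The third group holds members at the ends of the range. Snord96a (chr11:48802032-48802112, plus strand) and Snord11 (chr1:59704790-59704873, plus strand) had no ChIP read in either experiment, and Snora35 (chrX:146994381-146994508, plus strand) was among the few mouse-spelled rows above input.
Snord96a: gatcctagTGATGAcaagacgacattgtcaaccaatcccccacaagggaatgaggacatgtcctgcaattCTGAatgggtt
Snord11: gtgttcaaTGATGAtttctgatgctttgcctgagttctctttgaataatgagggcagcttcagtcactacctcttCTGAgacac
Snora35: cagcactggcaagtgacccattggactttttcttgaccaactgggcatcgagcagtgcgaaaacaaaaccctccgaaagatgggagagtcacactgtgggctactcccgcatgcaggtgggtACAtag

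Read numbers were low. Over the whole table the ChIP libraries held 162233 (v102) and 229605 (v134) reads and the input libraries 619100 and 1084349. The median member had 3 reads in each ChIP library and 20 and 39 reads in the inputs. For each row, ChIP and input reads (1 added to each) were divided by the library's sum over the table, and the log2 of their ratio was taken in each experiment and averaged. Percentiles rank a row among all rows by this mean. A row was called above or below input when edgeR's quasi-likelihood test of 2 against 2 libraries gave an adjusted p (Benjamini-Hochberg, all rows) under 0.05.

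SnoRNA windows had a lower H3K9me2/input ratio than the median start site. Their median log2 ratio was -0.53 in v102 and -1.10 in v134, with a mean-based median of -0.98, compared with -0.31 over all rows. This puts the median member at the 30.5th percentile. By edgeR, 76 of the 256 members (29.7%) were below input, compared with 17% of all rows, and 39 (15.2%) were above input, compared with 18.6% of all rows. With the experiment as a block, 43 members were below input (8.3% of all rows were) and 33 above (15.8% of all rows). DESeq2 called 23 above and 0 below, with 47 below at an unadjusted p under 0.05, and left the adjusted p undefined for 188 members. Over all 26354 rows it called 3026 above and only 29 below, so it called few rows below anywhere. Base composition was not the same as in other rows: the median GC content of placed members' windows was 43.8%, compared with 50.9% for rows with a position. Across all rows the ratio fell with GC content (Spearman's rho -0.55 over 22399 rows, a description), and after removal of that trend the median placed member was at the 10.7th percentile. The part of base composition in the result was not tested.

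The members agreed only in part between the experiments. Over the 256 members, which share libraries and are not independent, Spearman's rho of the log2 ratios was 0.59 and Pearson's r 0.66, compared with a rho of 0.69 over all rows. The sign was the same in both experiments for 216 of the 256 members, and for 20370 of all 26354 rows. The row of points at the lower edge of the plot of both experiments is made of members with 0 ChIP reads in v134.

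**Figure D1:**
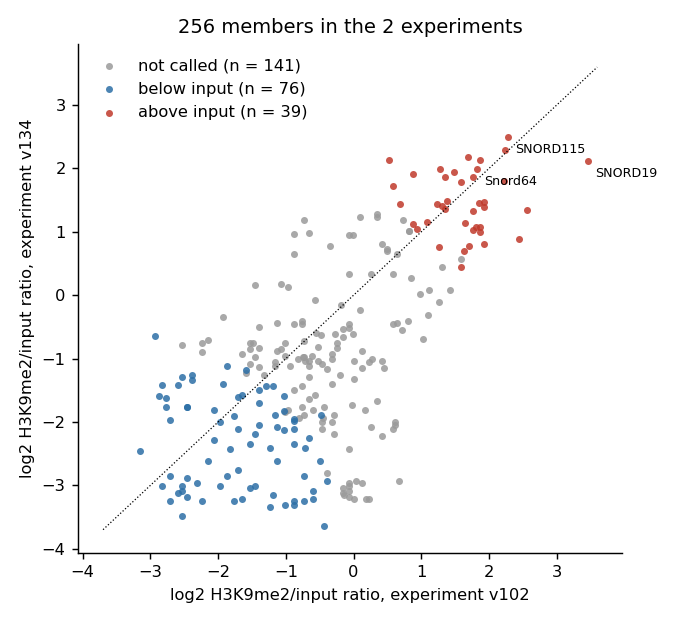
Log2 H3K9me2/input ratio of each of the 256 members in experiment v102 (x axis) and v134 (y axis), colored by the edgeR call. Dotted line, equal values. The 39 members above input (red) lie at the upper right with SNORD19 and SNORD115 at the end, the 76 below input (blue) at the lower left.

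Among the 3 classes, box C/D genes were lowest. The 127 Snord rows had a median log2 ratio of -0.77 in v102 and -1.40 in v134 (mean-based median -1.28, 21.5th percentile). Of these, 47 were below input (37.0%, or 25 rows with the block) and 12 above (9.45%, or 10 rows with the block). The 105 Snora rows had -0.18 and -0.69 (-0.51, 44.1st percentile), with 26 below (24.8%, or 17 rows with the block) and 21 above (20%, or 19 rows with the block). The 24 Scarna rows had -0.11 and -1.01 (-0.88, 33.3rd percentile), with 3 below (1 with the block) and 6 above (4 with the block). Over both spellings, Snord was below Snora in each experiment. Among mouse-spelled rows the order was reversed, with medians of -1.13 and -1.76 for Snora and -0.88 and -1.28 for Snord (v102 and v134). No p is given for the differences between classes, since flipping the sign of 2 experiments cannot give an exact p below 0.5.

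The Snora class held 2 unlike groups by spelling. The 37 mouse-spelled Snora rows had a median of -1.13 in v102 and -1.76 in v134 (-1.64, 13th percentile), with 20 below input (15 with the block) and 1 above, Snora35. The 68 SNORA rows in capitals had 0.23 and 0.09 (0.15, 62.8th percentile), with 20 above input and 6 below (18 and 2 with the block). That median near 0 turned negative, to -0.018, with totals that leave out mitochondrial rows, and to -0.74 after removal of the GC trend. Snord rows did not show this contrast in their medians, which were -1.28 for the 67 mouse-spelled rows and -1.25 for the 60 in capitals, although 10 of the capital rows and 2 of the mouse-spelled rows were above input (9 and 1 with the block). Scarna medians were -0.90 for 9 mouse-spelled rows and -0.86 for 15 in capitals, with 1 and 5 above input (1 and 3 with the block). In all, 35 of the 39 members above input were in capitals (30 of 33 with the block).

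**Figure D2:**
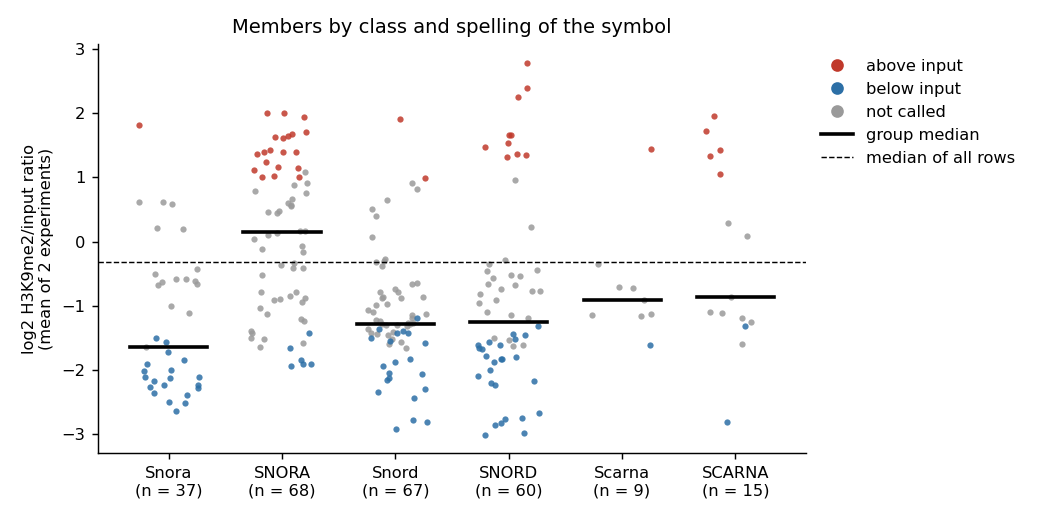
Mean log2 H3K9me2/input ratio (y axis) of every member by class and spelling (x axis), 1 point per row, with the group median as a solid bar and the median of all rows, -0.31, as a dashed line. Mouse-spelled Snora rows lie mostly below the dashed line and 20 of the 68 SNORA rows are above input, while the 2 Snord groups have medians of -1.28 and -1.25.

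Rows were then grouped by where the gene lies. Of the 211 members with a position, 173 lie inside a host gene on the same strand, 32 between annotated genes and 6 on the other strand of a gene. Members in hosts had a median log2 ratio of -0.73 in v102 and -1.50 in v134 (-1.22, 23.3rd percentile), with 60 below input and 7 above (36 and 5 with the block). Their summed ChIP reads, scaled by library totals, were 0.603 of input in v102 and 0.424 in v134. Members between genes had a median of 1.31 and 1.28 (1.35, 87.1st percentile), with 21 above and 1 below (19 and 0 with the block), and summed ChIP reads of 2.09 and 2.08 times input. The interquartile ranges did not overlap (-1.66 to -0.66 in hosts, 0.65 to 1.64 between genes), and the median input reads were alike, 60 in hosts and 55 between genes. After removal of the GC trend, the medians were at the 7.30th percentile in hosts and the 69.7th between genes.

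Position and spelling could be separated in part. In hosts, rows in capitals of all classes (68 rows, median -1.03, 19 below and 3 above, or 11 and 2 with the block) were near mouse-spelled rows (105 rows, median -1.29, 41 below and 4 above, or 25 and 3 with the block). Within the Snora class, however, a difference by spelling remained in hosts. The 34 mouse-spelled rows had a median of -1.78 with 20 below (15 with the block). The 30 rows in capitals had -0.86 with 5 below (1 with the block). Snord medians in hosts were -1.27 for mouse-spelled rows and -1.42 for capitals. Between genes, the 26 rows in capitals had a median of 1.40 with 21 above input and 0 below (19 above with the experiment as a block), of which 13 were SNORA, 4 SNORD and 4 SCARNA (13, 4 and 2 with the block). At an unadjusted p under 0.05, edgeR also had 0 of them below, and DESeq2 called 14 above and 0 below. The 6 mouse-spelled rows between genes had a median of -1.11, with 1 below and 0 above by edgeR (0 above also by DESeq2 and at an unadjusted p under 0.05). These 6 are annotated genes and include snoRNAs with promoters of their own. Snord118 (U8), needed for large-subunit ribosomal RNA processing, had 2 and 1 ChIP reads against 13 and 34 input reads. Snord13 (U13) had 0 and 4 against 17 and 43. Scarna2 had 2 and 4 against 31 and 39. Snord104 had 0 and 2 against 19 and 33 and was below input, but its edgeR adjusted p rose from 0.0290 to 0.0814 with the block. Snora17 had 7 and 19 against 38 and 54, and Scarna17 3 and 5 against 16 and 40.

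**Figure D3:**
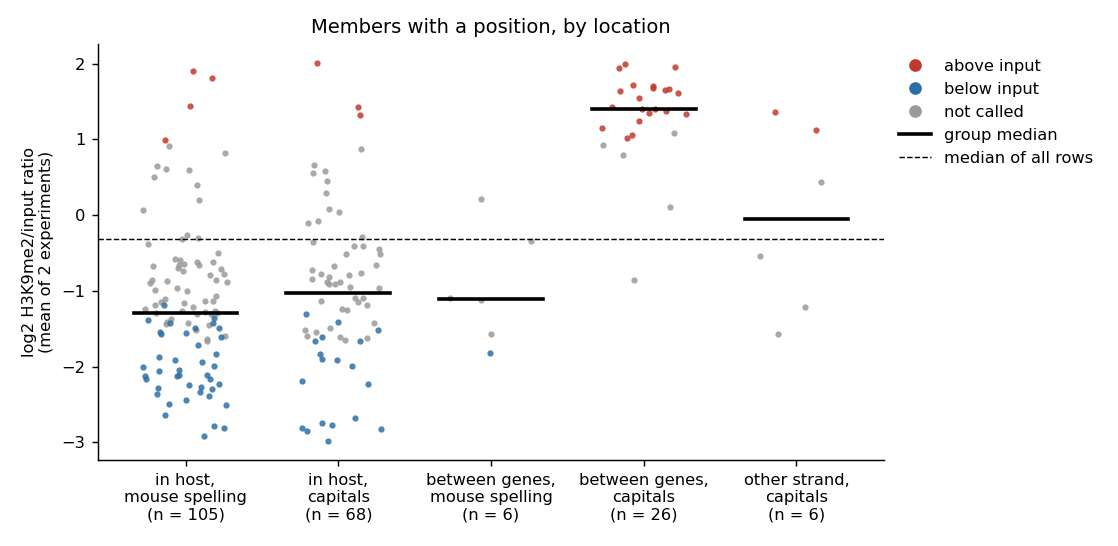
Mean log2 H3K9me2/input ratio (y axis) of the 211 members with a position by location and spelling (x axis), 1 point per row, with group medians as solid bars and the median of all rows as a dashed line. Rows in capitals between genes have a median of 1.40, while both host groups and the mouse-spelled rows between genes have medians of -1.03 to -1.29.

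The number of copies of a family went with the ratio among rows in capitals. The 49 rows with at most 1 RefSeq copy had a median log2 ratio of -1.14, the 69 rows with 2 to 5 copies -0.56, and the 25 rows with over 5 copies 0.92, with 11 of the last group above input (10 with the block). Among mouse-spelled rows the medians were -1.30 for 72 rows, -1.14 for 33 rows and -0.64 for 8 rows. How reads from near-identical copies were assigned is not given in the sources used here, so for these families the position of the signal is uncertain. Median summed input reads were 59, 58 and 62 in the 3 groups of rows in capitals.

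Of the imprinted group, SNORD115 had a row and Snord116 had none. SNORD115, a box C/D family known for its brain expression, had 27 and 42 ChIP reads (v102 and v134) against 21 and 35 input reads. It had more ChIP than input reads in each experiment, although the ChIP libraries were smaller. After scaling by library totals the ChIP level was 5.36 times input, with a 95% Wilson interval of 3.77 to 7.61 for counting error. The log2 ratio of 2.39 ± 0.15 (SD, n = 2) was at the 98.7th percentile. In edgeR's quasi-likelihood test the log2 fold change was 2.54 (SE 0.35, adjusted p = 8.17e-11). The row lies between Ube3a and Snord64 in the table. RefSeq has 132 copies there with 54 different sequences over 271.9 kb, and which copy the window surrounds is not known.

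Upstream on the minus strand in the same region, Snord64 had 12 and 31 ChIP reads against 13 and 37 input reads, a log2 ratio of 1.91 ± 0.12 (SD, n = 2). It was above input by edgeR (log2 fold change 2.05, SE 0.39, adjusted p = 4.24e-06). Snord107 had 8 and 17 against 17 and 40, a log2 ratio of 0.99 ± 0.08 (SD, n = 2), and was also above input (edgeR adjusted p = 0.0417), but with the experiment as a block its adjusted p was 0.0735. The 5′ ends of Snord64 and Snord107 lie about 2 kb apart inside the same noncoding transcript, so their windows nearly adjoin. All 3 snoRNA rows of the region were thus above input in the unblocked test.

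Of 8 listed protein genes around these snoRNAs, 6 were above input, at log2 ratios of 1.43 (Ndn) to 2.17 (Mkrn3). Snurf and Snrpn, whose shared transcript starts the paternal unit, had 1.60 and 1.66. Ube3a, which is maternally expressed in neurons, had -0.94 in v102 and 0.65 in v134, and Atp10a had 0.12 and -0.93, and neither passed the test. The experiments differed most at Ndn, with 2.32 in v102 and 0.54 in v134. The reads carry no parental label, so the 2 alleles cannot be told apart.

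**Figure D4:**
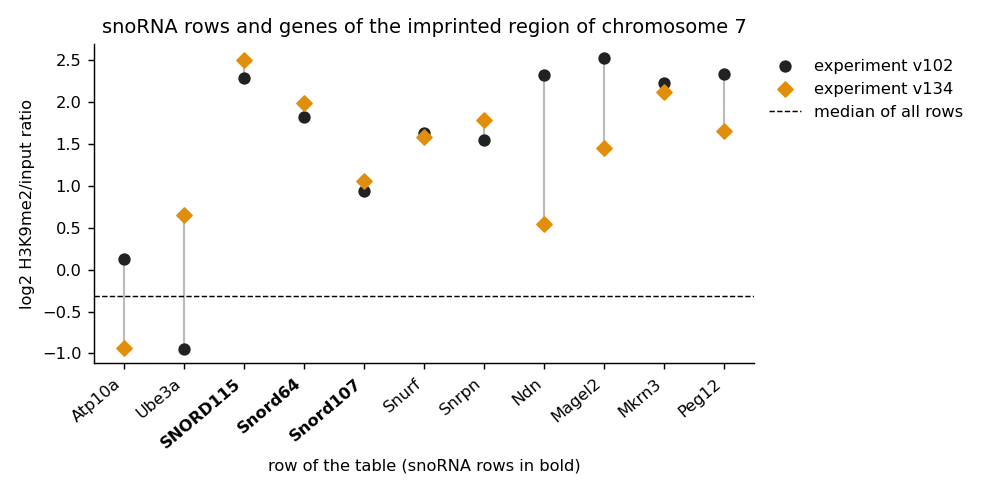
Log2 H3K9me2/input ratio (y axis) in experiments v102 (circles) and v134 (diamonds) for the 3 snoRNA rows (bold) and 8 genes of the imprinted region of chromosome 7, in chromosome order (x axis, not to scale), with the median of all rows as a dashed line. SNORD115 and Snord64 lie above 1.8 in each experiment, while Atp10a and Ube3a have values on either side of 0.

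The Dlk1-Dio3 imprinted region of chromosome 12, which hosts other box C/D repeats, had 1 row, SNORD112. It lies between Rtl1 and Mir341 in the table and had 4 and 4 ChIP reads against 22 and 35 input reads, a log2 ratio of -0.44 ± 0.24 (SD, n = 2), with edgeR adjusted p = 0.47. The SNORD113 row is placed by its neighbours, Vps13c and Rora, outside that region. It had 19 and 17 ChIP reads against 13 and 45 input reads and was above input (log2 fold change 1.63, SE 0.40, edgeR adjusted p = 5.03e-04), with log2 ratios of 2.45 in v102 and 0.89 in v134. Meg3, the noncoding transcript of that region, had a log2 ratio of 1.55 and was above input by edgeR (adjusted p = 0.0132, and 0.0586 with the block), and Rian and Mirg had no row.

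The highest of all members was SNORD19, with 25 and 44 ChIP reads against 8 and 48 input reads. Its log2 ratio was 3.46 in v102 and 2.12 in v134 (2.79 ± 0.95, SD, n = 2), and edgeR gave a log2 fold change of 2.62 (SE 0.35, adjusted p = 2.31e-11). It lies between the olfactory receptor gene Olfr959 and AW551984, and the placement rule found no RefSeq copy of the family there. Below SNORD115 came SNORD29, with 15 and 31 against 12 and 30 and a log2 ratio of 2.26 ± 0.04 (SD, n = 2), between Tfap2b and 4930486I03Rik. Mouse Snord19 in contrast had -1.45.

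In the Snora class the highest were SNORA26 within the neuronal gene Map2 (27 and 33 ChIP reads, 22 and 45 input reads, log2 ratio 2.01 ± 0.29), SNORA17 (22 and 36, 23 and 39, 2.00 ± 0.18) and SNORA68 (10 and 26, 12 and 27, 1.94 ± 0.35), each with n = 2 and SD. All 3 were above input, with edgeR adjusted p of 9.42e-08, 9.56e-08 and 8.97e-06. SNORA17 has 438 copies in RefSeq and SNORA48, another row above input, has 167. SNORA46 and SNORA48 had log2 ratios of 1.70 and 1.61.

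Scarna rows above input were led by SCARNA18 (16 and 20 ChIP reads, 10 and 38 input reads, log2 ratio 1.95 ± 0.86) and SCARNA16 (13 and 26, 18 and 32, 1.72 ± 0.32), both between genes. Scarna3a, within the ubiquitin ligase gene Cop1, had 10 and 15 ChIP reads against 11 and 35 input reads and a log2 ratio of 1.44 ± 0.52. It was the highest mouse-spelled scaRNA and was above input by edgeR (adjusted p = 0.0103), but not by DESeq2 (adjusted p = 0.0790). After removal of the GC trend its log2 ratio turned to -0.37, at the 49.2nd percentile.

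Snora35 lies in Htr2c, a serotonin receptor gene on the X chromosome known for expression in brain, as is this snoRNA. It had 7 and 16 ChIP reads against 8 and 21 input reads, and its log2 ratio was 1.76 in v102 and 1.87 in v134. The log2 fold change in edgeR was 1.92 (SE 0.51, adjusted p = 0.0014), and 0.0219 with the block. With Snord64, Snord107 and Scarna3a it completes the mouse-spelled members above input. The row SNORA35, placed in Lrch2 on the same chromosome, had 0 and 2 against 9 and 19 and did not pass the test (edgeR adjusted p = 0.223).

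At the other end, 14 of the 256 members had no ChIP read in either experiment, compared with 523 of all 26354 rows. All 14 members were below input with and without the block. For these, a floor of 3 reads over both ChIP libraries gives a bound, and setting them at it left the medians of all members and of the 3 classes as they were. Of the 7 members in Gas5, a noncoding host of many box C/D snoRNAs, SNORD24, SNORD44, SNORD74 and SNORD75 were among them. SNORD24 had 24 and 44 input reads and was thus at least 5.21-fold lower in ChIP than in input. Windows in Gas5 overlap and share reads, so these rows are not independent. The other members in Gas5 had 1 to 5 ChIP reads over both experiments: 1 at SNORD78, 3 at Snord47 and 5 at SNORD81.

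Snord96a and Snord95, adjacent box C/D genes in Rack1, a ribosomal scaffold protein gene, had no ChIP read against 26 and 37 and 24 and 33 input reads. Snord96a was at least 4.83-fold and Snord95 at least 4.37-fold lower. Snord11 and the overlapping SNORD11 in Nop58, the gene of a core box C/D protein, were at least 4.60-fold and 4.75-fold lower, and SNORD60 in Rab26os at least 4.68-fold. SNORD63, between Etf1 and Hspa9, had the most input reads of the 14, 21 and 52, and was at least 5.60-fold lower. Of Snora genes, Snora64 in Rps2, Snora41 in Eef1b2, Snora34 in Kansl2 and Snora15 in Cct6a had none.

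The lowest scaRNA was SCARNA6 in Atg16l1, with 0 and 2 ChIP reads against 33 and 77 input reads, a ratio of 0.0790 of input (95% Wilson interval 0.0215 to 0.291, counting error only). Snora73b (U17b), in Snhg3 and required for ribosomal RNA cleavage, had 1 and 0 reads against 25 and 44, a ratio of 0.0630 (0.0110 to 0.361). Its neighbour Snora73a had 2 and 5 against 24 and 51 and did not pass the test. Snord15a in Rps3 had 1 and 0 against 23 and 43, a ratio of 0.0659 (0.0115 to 0.377).

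Other named members lay low or near the middle. Of these, Scarna3b and SCARNA11 are named for being among the lowest Scarna rows, and the rest come from the list of well-studied snoRNAs. Snora62, in Rpsa, had 3 and 0 ChIP reads against 22 and 39, Snora7a in Rpl32 had 1 and 3 against 27 and 40, and Scarna3b in Dcaf5 had 2 and 1 against 24 and 39. All 3 were below input without the block only. The box C/D genes of Rpl13a are Snord32a, Snord33, Snord34 and Snord35a, and all but Snord34 are known for a role in lipotoxic stress. They had log2 ratios of -0.86 to -0.31, and none passed the test (edgeR adjusted p 0.204 to 0.739). Snord22 in Snhg1, Snord14a in Rps13, Snord14e in Hspa8, Snord87 in Snhg6 and Snora24 in Snhg8 had -1.19 to -0.26 and did not pass either. Scarna8, Scarna9, Scarna10 and Scarna13 had means of -1.16 to -0.72, with 0.42 in v102 and -2.22 in v134 at Scarna9. SCARNA11 in Chd4 had -1.60, with 3 and 0 ChIP reads against 19 and 32, and Snora74a had -0.57 with 4 and 7 against 27 and 56.

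By kind of host, 37 members in ribosomal protein genes had a median log2 ratio of -1.31 with 16 below input (8 with the block) and 0 above by edgeR (1 at an unadjusted p under 0.05, 0 by DESeq2), and summed ChIP reads of 0.427 of input in v102 and 0.297 in v134. The 21 members in Snhg genes or Gas5 had a median at the 29.7th percentile, with 7 below (6 with the block) and 0 above by edgeR (0 also by DESeq2 and at an unadjusted p under 0.05). The other 115 members in hosts had -1.22 with 37 below and 7 above (22 and 5 with the block). With the distance from the host's start, the median was -1.14 under 1 kb (23 members), -1.30 from 1 to 10 kb (100 members) and -0.91 beyond 10 kb (50 members). The last group held 6 of the 7 host members above input (5 of 5 with the block), and there the summed ChIP reads were 0.940 of input in v102 and 0.608 in v134. After removal of the GC trend the order changed, with median percentiles of 19.1 under 1 kb, 3.97 from 1 to 10 kb and 8.52 beyond 10 kb.

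Host start sites were low as well. Of the 122 hosts, 103 have a row, with a median log2 ratio of -0.91, 30 below input and 3 above (14 and 2 with the block). Windows of 97 of the 173 host members hold a transcript start of another gene, with a median of -1.19, and the 76 without one had a median of -1.26. Starts of the host's own transcripts count here, so such a window need not hold the start of a separate gene. Of the 94 members whose window overlaps no other row and holds no other start, 27 were above input and 16 below (25 and 10 with the block). These are 28.7% above and 17.0% below, compared with 18.6% and 17.0% of all rows. The share below was thus near that of all rows and the share above was higher. Their median was -0.56, compared with -0.31 over all rows.

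Families with a row in each spelling gave a comparison of loci of like name. There are 36 such pairs, 24 Snora, 9 Snord and 3 Scarna, and the row in capitals had the higher mean log2 ratio in 28 of them, with a higher value in both experiments in 24 and a lower value in both in 4. The median difference was 1.55 in v102 and 1.80 in v134. Fisher's exact test on summed ChIP and input reads, two-sided and adjusted over the 36 pairs by Benjamini-Hochberg, gave 20 pairs with the capital row higher and 2 with it lower, Snora35 and Scarna6. That test covers counting error only. The windows overlap in 2 pairs, Snord11 and Snord70.

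For near-identical snoRNAs the loci differed. Snora21 had 1 ChIP read and SNORA21 had 30, against 51 and 53 input reads, and their log2 ratios were -2.11 and 1.40 (exact Fisher adjusted p = 6.21e-06). Snora30 in its host and SNORA30 between Klhl1 and Dach1 had 5 and 33 ChIP reads against 44 and 45 input reads, with log2 ratios of -0.62 and 1.68 (exact Fisher adjusted p = 2.83e-04). Snora41 and SNORA41, with 97.7% identity, had 0 and 17 ChIP reads against 51 and 58 input reads (exact Fisher adjusted p = 2.18e-04). The pair with the largest difference was Snord19 and SNORD19 (4.24). Identity could be computed for 26 pairs and ranged from 65.7 to 98.5%, with a median of 76.9%.

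**Figure D5:**
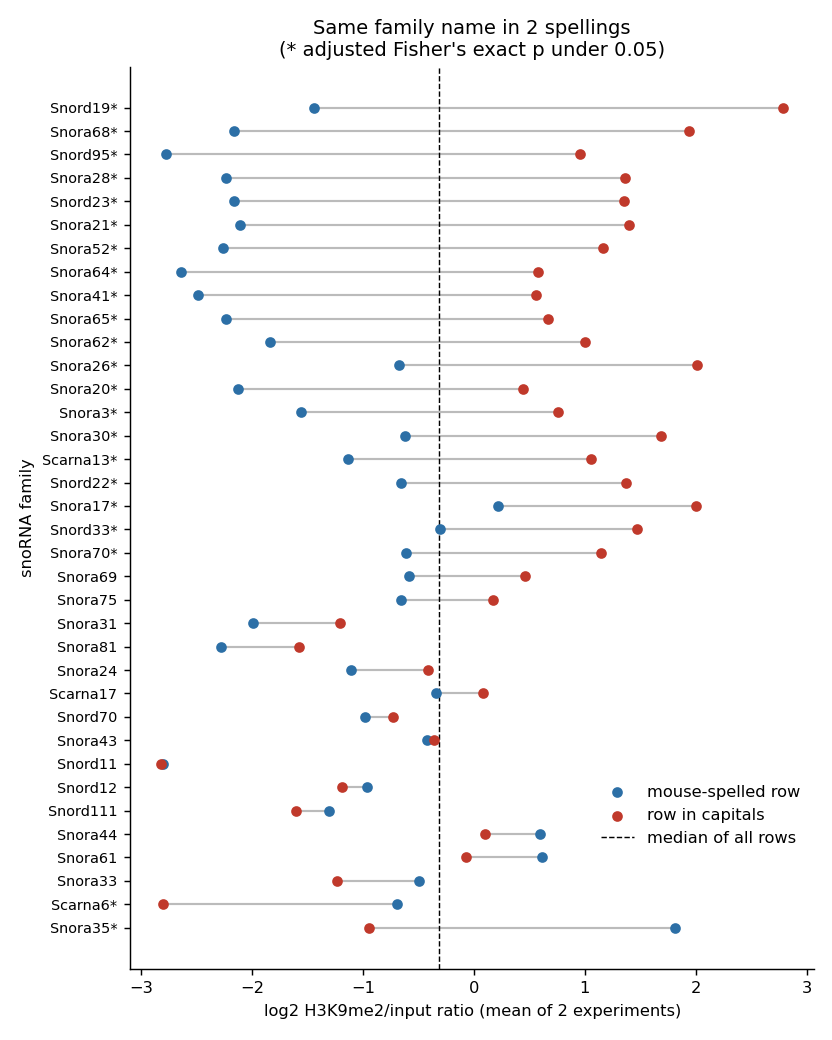
Mean log2 H3K9me2/input ratio (x axis) of the mouse-spelled row (blue) and the row in capitals (red) for 36 snoRNA families (y axis), sorted by difference, with the median of all rows as a dashed line and asterisks for families whose adjusted exact Fisher p is under 0.05. The red point is to the right in 28 families, and Snora35 and Scarna6 at the bottom go the other way.

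The boxes that define the classes were found at most placed loci. Of 101 Snord loci with a sequence, 60 (59.4%) hold TGATGA and CTGA in the searched ends, compared with 0 of the same-length segments directly upstream. Of 86 Snora loci, 74 (86.0%) hold ACA in the last 8 bases, compared with 8.14% of the upstream segments. The shares with ACA were 94.1% for mouse-spelled and 80.8% for capital Snora loci, 88.9% both in hosts and between genes, and 2 of 5 on the other strand of a gene. Of Snord loci, 59 of 93 (63.4%) in hosts hold both boxes, compared with 1 of 7 between genes and 0 of 1 on the other strand. Among the 16 Snora loci between genes with ACA the median log2 ratio was 1.42, compared with -1.18 for the 56 in hosts with ACA.

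Genes for the proteins that build and carry these RNAs were mostly not called. Of 20 listed snoRNP genes with a row, 2 were above input (Znhit6 and Ruvbl1, both box C/D assembly factors) and 2 below (Wrap53, which takes scaRNAs to Cajal bodies, and Nolc1, whose edgeR adjusted p was 0.0685 with the block), compared with 18.6% and 17% of all rows, and the median log2 ratio was -0.29. Fibrillarin (Fbl) had 2 and 5 ChIP reads against 28 and 38 input reads and dyskerin (Dkc1) 1 and 0 against 11 and 20, and neither passed the test. As a check of the tissue only the mark could be read, since no RNA was measured. Of 7 smooth muscle markers, Myh11 (0 ChIP reads in each experiment) and Myocd were below input and Smtn above, and with the block Myocd lost its call (edgeR adjusted p = 0.0651). Ptprc of 3 leukocyte markers was above input, and of 3 endothelial markers Tie1 was above and Pecam1 below, the latter with an edgeR adjusted p of 0.0922 with the block.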

How the data were processed

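The authors trimmed reads with Trim Galore 0.4.2 and cutadapt 1.9.1, aligned them to GRCm38 with Bowtie2 2.2.7 and counted reads around start sites with SeqMonk, and they deposited raw counts for 4 libraries, the sums over experiments, and the ratio of these sums, ChIP over input, which is not scaled for depth. Rows with few input reads were removed by the authors (lowest summed input 21). Which annotation was used, and how duplicate and multiply mapped reads were treated, is not given in the sources used here. Intervals (95%) are Wilson intervals and cover counting error only.

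Counts were tested with edgeR 4.0.16 (R 4.3.3), quasi-likelihood, TMM, Benjamini-Hochberg over 26354 rows, at a threshold of 0.05, on 2 ChIP and 2 input libraries, and with DESeq2 1.42.0. The edgeR code was run on simulated counts with few changed rows and no difference between experiments. That setting is simpler than these data, so it checks the code and not the calls made here. P-values measure the spread between these libraries. TMM in place of library totals moves the median log2 fold change of all rows from -0.50 to -0.35. The paper gives each ChIP its own input, so the experiment number pairs libraries (correlation of their differences 0.0799), and counts with this block are given beside those without it where they differ. The GC trend was removed by lowess (fraction 0.3). Positions came from GENCODE vM21 and RefSeq for GRCm38, using up to 3 neighbouring rows on each side for families in capitals. Sequences of 3 members on chromosome 18 were not read. Python 3.11.15, pandas 2.3.3, scipy 1.17.1, statsmodels 0.14.6, pysam 0.24.0, Biopython 1.88 and matplotlib 3.10.9 were used.

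The members and lists were chosen with earlier results of these data known. Named members are every Snord115 or Snord116 row, the 10 smallest p in each direction, the 3 highest and lowest of each class, and a list of well-studied snoRNAs. Others, the spelling and location groups, family pairs and box searches were chosen after values were seen. 1 result is not reported here.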

Additional observations from a re-analysis of the deposited data

How the results depend on the processing

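Depth limits these values: most members have under 10 ChIP reads over both experiments, so single rows below input rest on few reads. Of the 39 and 76 members above and below input, DESeq2 called 23 and 0, a minimum of 20 reads in each input left 21 and 36 (of 144 members), autosomal rows matched to an annotated symbol 5 and 35 (of 107), and mouse-spelled rows alone, an alternative added after the data were seen, 4 and 42. The replicate block gave 33 and 43, all among those called without it, library totals 34 and 101, at least 50 summed input reads 35 and 52, and the fit without mitochondrial rows 40 and 75. edgeR was not run with 1 library per arm, which leaves no residual degrees of freedom.

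With 5 reads added in place of 1, median log2 ratios were -0.057 for all members, 0.27 for Snora, -0.12 for Snord, -0.028 for Scarna, 0.63 for SNORA in capitals and -0.31 for mouse-spelled Snora, while the median percentile of all members was 26.9. Without the GC trend they were -1.64, -1.40, -1.96, -1.17, -0.74 and -1.71, and the percentile was 10.7. Windows free of other rows and starts, added after the data were seen, gave -0.56 for all members (42.5th percentile), 0.12 for Snora and 0.57 for SNORA in capitals. At least 20 reads in each input gave -0.88 for Snora and -0.14 for SNORA in capitals. Totals without mitochondrial rows gave 2.22 for SNORD115 and -0.018 for SNORA in capitals.

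Leaving out v102 or v134 in turn gave medians of -1.10 to -0.53 for all members (30.8 to 37.6 as a percentile), -0.69 to -0.18 for Snora, -1.40 to -0.77 for Snord, -1.01 to -0.11 for Scarna, 2.28 to 2.50 for SNORD115, 0.09 to 0.23 for SNORA in capitals and -1.76 to -1.13 for mouse-spelled Snora. The values nearest 0 are those without v134, except for SNORA in capitals. Of named members that were called, only Scarna3a changed sign under an alternative run here, from 1.44 to -0.37 without the GC trend. The cause of these shifts was not tested.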
